A study of Mus musculus with 4 samples.

Results

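The integrated stress response amino acid genes are Atf4 and Atf5, which encode transcription factors, and Asns, Phgdh, Psat1, Shmt2, Mthfd2, Slc7a5, Slc3a2 and Slc7a11, which encode enzymes and transporters that handle amino acids. They were chosen by name and not by a cut on their values, though earlier results of these data were known. All 10 were found once each among the 48431 genes of the deposited table. The RNA came from dorsal root ganglia (DRG), where the cell bodies of sensory neurons lie next to the spinal cord, of wild-type male mice of strain label SW whose age the labels do not give. All 4 libraries come from 1 group, mice given methylglyoxal (MGO) intraperitoneally at 2 mg/kg for 6 days. MGO is a reactive by-product of glycolysis, and the series title names metabolic neuropathy as its subject. Vehicle-treated mice were not analysed here, and no value below measures a response to MGO. The labels do not say whether libraries came from separate or pooled animals, so the p-values rest on library-to-library spread, and that spread may be technical.

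In the integrated stress response, stress-activated kinases phosphorylate the translation factor eIF2α. Most protein synthesis then slows, while the mRNAs of ATF4 and ATF5 are translated more, through short reading frames in their leaders. ATF4, often paired with a C/EBP family protein, binds C/EBP-ATF response elements in genes for amino acid synthesis and uptake. In sensory neurons the pathway is studied for its part in pain and nerve disease. The RNA levels given here say nothing of translation or of phosphorylated eIF2α.

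The promoter windows that hold the core of a C/EBP-ATF response element are shown because that element is what links such genes to ATF4 in the literature. RefSeq windows (GRCm38.p6) from 250 bases before to 50 after the gene start were searched on both strands for TGATGNAA, and 9 of the 10 genes had a window. Slc7a11 held it on each strand, at starts 66 and 47 bases before the gene start, with no overlap of the matches. Asns held it at 23 bases before the RefSeq gene start. GENCODE places the start of Asns farther upstream, at 7693254, so the match and the stretch below lie inside the gene as annotated there. The stretches read 5′ to 3′ on the gene's own strand, the minus strand for both genes, with the matches in capitals. The Slc7a11 stretch is chr3:50443644-50443693 and the Asns stretch is chr6:7693217-7693246.
Slc7a11: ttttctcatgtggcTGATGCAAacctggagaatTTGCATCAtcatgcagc
Asns: gggtcccagccacaTGATGAAActtcccgc
Of all 32851 windows 3.97% held the motif, and of all genes with a window 4.51%, against 2 of 9 here. In the related gene lists described further on, 10 of 54 genes with a window held it, among them Atf3, Chac1, Fgf21, Nupr1, Trib3 and Vldlr of the stress response list. A match is a description of letters and not a bound site.

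The annotated leaders of both transcription factor genes carried the upstream start codons for which these mRNAs are known. In the principal GENCODE transcript, Atf4 had 3 upstream ATG codons in a leader of 594 bases and Atf5 had 2 in 373 bases. In each gene 1 of them opens a frame that runs past the main start codon out of frame, as does 1 in Psat1. Over 21574 genes, 17.0% had such an overlapping frame, and the median leader was 161 bases. Asns and Slc7a11 had 1 upstream ATG each, whose frame ended inside the leader. Phgdh, Shmt2, Mthfd2, Slc7a5 and Slc3a2 had none. In all, 5 of the 10 genes had an upstream ATG, close to the 51.9% over all genes.

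Values are CPM, the read count of a gene scaled so that each library sums to 1000000. The step between low values implies 10138766, 8975726, 5576834 and 7223765 reads in replicates 1 to 4, and 3 reads, the floor for a gene listed at 0, equal 0.296 to 0.538 CPM. All 10 genes reached 1 CPM in all 4 libraries, against 26.5% of all genes in the table and 54.4% of protein-coding genes. Together they held 647, 718, 944 and 784 CPM in replicates 1 to 4, or 0.0773% ± 0.0127 of a library (SD, n = 4). Atf4, Slc7a5 and Atf5 made up 70.2% and 71.1% of that sum in replicates 1 and 2 and 84.5% and 85.7% in replicates 3 and 4. The libraries stood apart as these pairs in much of the table. The 18S ribosomal RNA entries were listed at 0 in replicates 1 and 2 and took 8.26% and 10.8% of replicates 3 and 4, and the labels name no batch. The 8 pan-neuronal markers, Uchl1 among them, were all detected (1 CPM or more in all 4 libraries).

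**Figure D1:**
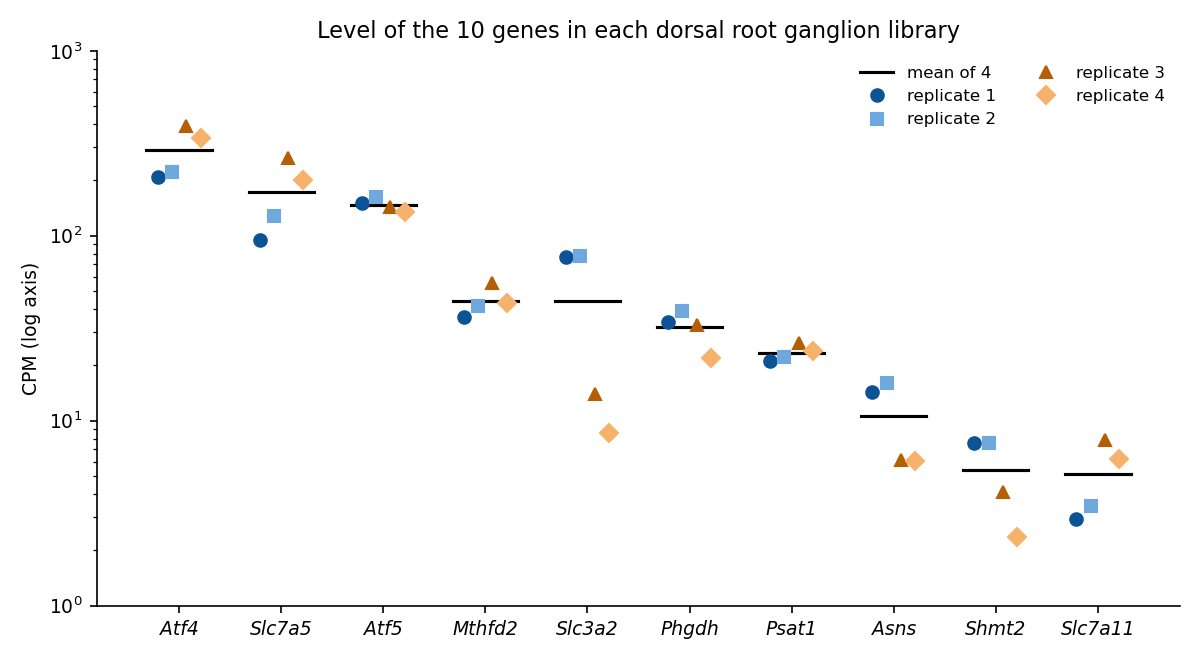
CPM (log axis) of each gene in replicates 1 to 4, with the mean of the 4 libraries as a bar, ordered by that mean. Atf4 has the highest mean at 289 CPM and Slc7a11 the lowest at 5.13 CPM, and the Slc3a2 values of replicates 1 and 2 (76.5 and 77.3 CPM) lie far above those of replicates 3 and 4 (13.99 and 8.58 CPM).

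Atf4, on chromosome 15 (80255184 to 80257541, GRCm38), encodes the central activator of the response and had the highest level of the 10 genes in every library. It had 209, 220.5, 390.2 and 338 CPM in replicates 1 to 4, with a mean of 289 ± 89.0 CPM (SD, n = 4). Replicates 3 and 4 were both above replicates 1 and 2. Atf5, on chromosome 7 (44812256 to 44816658), encodes a related factor of the same leucine zipper class. It had 149.9, 161, 143 and 134 CPM in replicates 1 to 4 and was the steadiest of the 10, with a mean of 147 ± 11.4 CPM and a coefficient of variation of 7.73%. Atf4 exceeded Atf5 by 0.92 on the log2(CPM + 1) scale (higher in 4 of 4 libraries, SE 0.28, limma adjusted p = 0.0248), a scale that understates differences of low genes. The Atf4 to Atf5 ratio was 1.39 and 1.37 in replicates 1 and 2 but 2.72 and 2.52 in replicates 3 and 4. Per kb of exon the log2 difference was 0.68 and did not pass (limma adjusted p = 0.0666), and the CPM call was also lost without replicate 3 (limma adjusted p = 0.092) or replicate 4 (0.0887).

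QuantSeq libraries are built from the 3′ ends of transcripts, so that CPM needs no scaling by length if every transcript gave 1 tag. That could not be checked from the values, so most named comparisons between genes are given in CPM and again in CPM per kb of exon. The fits differ only in that scale. The test was limma on the within-library difference, fitted for each of the 10 genes against every gene that averaged 1 CPM or more. P-values were adjusted over all 148115 such gene pairs. The variance of each gene pair was drawn toward a value shared by all pairs, so a p-value does not rest on that pair's own spread alone.

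Slc7a5, on chromosome 8 (121881150 to 121907694), encodes LAT1, the transporter that takes up leucine and other large neutral amino acids. It had 94.7, 128, 263 and 199 CPM in replicates 1 to 4, with a mean of 171 ± 75.2 CPM (SD, n = 4). Replicates 3 and 4 were 2.08-fold above replicates 1 and 2 without overlap. Slc7a11, on chromosome 3 (49892526 to 50443614), encodes xCT, which exchanges glutamate for cystine and so feeds glutathione synthesis. It had 2.96, 3.45, 7.89 and 6.23 CPM, a mean of 5.13 ± 2.33 CPM, which rested on only 30 to 45 reads per library. It too was higher in replicates 3 and 4, by 2.2-fold.

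Slc3a2, on chromosome 19 (8706882 to 8723369), encodes the heavy chain CD98hc that carries both LAT1 and xCT to the cell surface, and its level moved opposite to both. It had 76.5, 77.3, 13.99 and 8.58 CPM in replicates 1 to 4, with a mean of 44.1 ± 38.0 CPM (SD, n = 4). Replicates 1 and 2 agreed within their counting intervals and lay 6.82-fold above replicates 3 and 4. The Slc3a2 values rested on 776, 694, 78 and 62 reads, and the 95% Poisson intervals of the lower libraries, 11.1 to 17.5 and 6.58 to 11.003 CPM, stayed far below those of replicates 1 and 2. Such intervals cover counting error only.

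The level of the heavy chain gene relative to its partners therefore differed widely between libraries. The Slc3a2 to Slc7a5 ratio in CPM was 0.808 and 0.603 in replicates 1 and 2 and 0.0531 and 0.0431 in replicates 3 and 4. Slc3a2 was below Slc7a5 in 4 of 4 libraries, with a log2(CPM + 1) difference of -2.39 (SE 0.82, limma adjusted p = 0.0375) and one of -2.30 per kb of exon (limma adjusted p = 0.045). That call was lost without replicate 3 (log2 difference -1.80, limma adjusted p = 0.129) and without replicate 4 (-1.72, limma adjusted p = 0.116). Slc3a2 was above Slc7a11 in 4 of 4 libraries, by 25.9-fold and 22.4-fold in replicates 1 and 2 but by 1.77-fold and 1.38-fold in replicates 3 and 4. The log2(CPM + 1) difference was 2.40 (SE 0.79, limma adjusted p = 0.0334), and the call was lost without replicate 1 (1.77, limma adjusted p = 0.0903) or replicate 2 (1.82, limma adjusted p = 0.0905). Per kb of exon the difference was 3.62 (limma adjusted p = 0.00543).

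Between the light chains, by contrast, the ratio varied little, though it rested on 30 to 45 Slc7a11 reads per library. The 95% Poisson interval of Slc7a11 in replicate 1 was 2.00 to 4.22 CPM, so each ratio is known only roughly. Slc7a5 exceeded Slc7a11 by 32-fold, 37.1-fold, 33.4-fold and 32-fold in CPM in replicates 1 to 4, although both levels were about 2-fold higher in replicates 3 and 4. The log2(CPM + 1) difference was 4.78 (SE 0.21, limma adjusted p = 2.62e-05), and 5.92 per kb of exon, a scale on which the 13922 bases of exon annotated for Slc7a11 enter. Slc7a5 also exceeded Slc7a8, which encodes the related transporter LAT2, with a mean of 45.2 ± 10.8 CPM for Slc7a8 (log2 difference 1.82, higher in 4 of 4 libraries, SE 0.24, limma adjusted p = 0.000851; 2.23 per kb of exon). Slc7a11 was below the glutamine transporter gene Slc1a5 in 4 of 4 libraries (log2 difference -1.84, SE 0.64, limma adjusted p = 0.0388; -2.85 per kb of exon). Slc1a5 had 38.5, 40.8, 9.50 and 9.83 CPM, high and low in the same libraries as Slc3a2. Without replicate 1 or 2 that call was lost (limma adjusted p = 0.111 and 0.11).

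**Figure D2:**
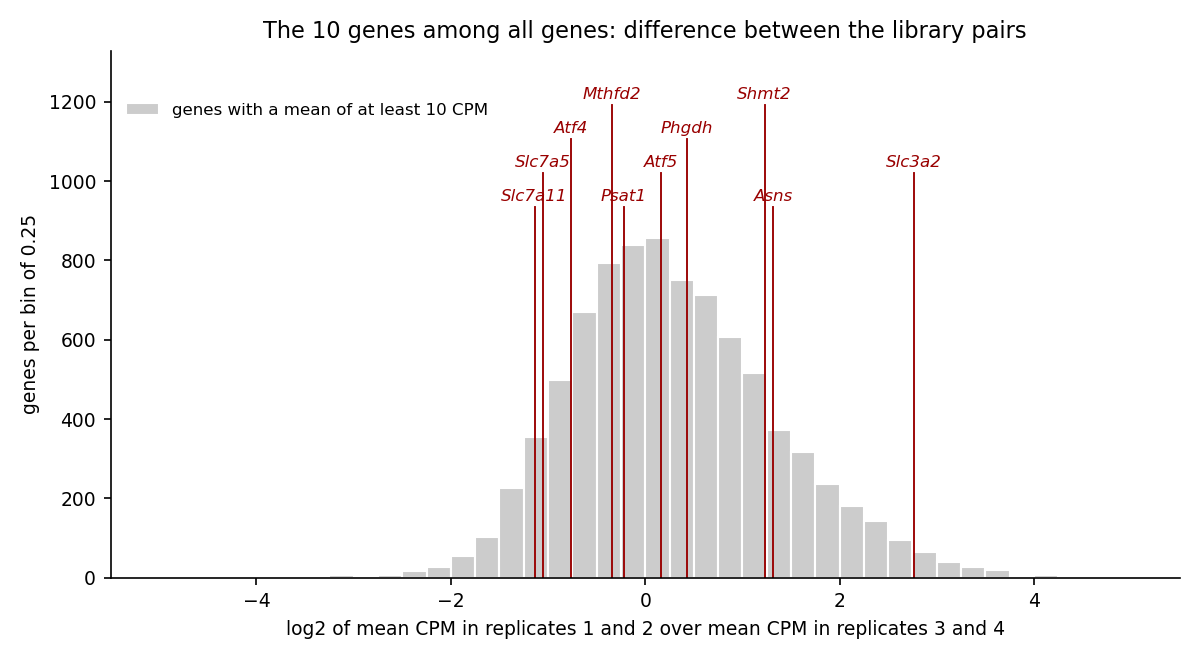
Histogram of the log2 ratio of mean CPM in replicates 1 and 2 over replicates 3 and 4 for the 8580 genes that averaged 10 CPM or more, with a line for each of the 10 genes. Slc3a2 at 2.77 lies above 98.1% of the genes, while Slc7a11 at -1.14 lies above only 7.16% of them and Slc7a5 at -1.05 above only 8.55%. Slc7a11 (mean 5.13 CPM) and Shmt2 (5.41 CPM) average below 10 CPM, so they are set against genes with more reads.

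Phgdh and Psat1 encode the enzymes of the first steps of serine synthesis from a glycolytic intermediate. Phgdh, on chromosome 3 (98313170 to 98339990), had 34.3, 39.3, 33.0 and 21.7 CPM in replicates 1 to 4, a mean of 32.1 ± 7.43 CPM (SD, n = 4). Psat1, on chromosome 19 (15904678 to 15947337), had 20.9, 22.2, 26.4 and 23.8 CPM, a mean of 23.3 ± 2.35 CPM. Psat1 varied little, while replicate 4 was the low library for Phgdh. Phgdh was above Psat1 in 3 of 4 libraries and the CPM difference did not pass (log2 difference 0.42, SE 0.25, limma adjusted p = 0.176), whereas it passed per kb of exon (1.16, SE 0.25, limma adjusted p = 0.00714). Both exceeded Psph, the gene of the phosphatase that completes the pathway, which had 7.10, 6.69, 2.87 and 3.60 CPM. The log2(CPM + 1) difference was 2.49 for Phgdh over Psph (SE 0.26, limma adjusted p = 0.000306) and 2.07 for Psat1 over Psph (SE 0.31, limma adjusted p = 0.00154). Both held in 4 of 4 libraries and passed per kb of exon as well.

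Shmt2 and Mthfd2 act one after the other in mitochondria, where SHMT2 turns serine into glycine and passes a carbon unit to folate, and MTHFD2 oxidises that unit. Their levels differed widely. Mthfd2, on chromosome 6 (83305691 to 83325908), had 36.3, 41.8, 55.2 and 43.5 CPM in replicates 1 to 4, a mean of 44.2 ± 7.97 CPM (SD, n = 4). Shmt2, on chromosome 10 (127517123 to 127522444), had 7.59, 7.58, 4.12 and 2.35 CPM, a mean of 5.41 ± 2.61 CPM, with 23 and 17 reads behind the lower libraries. Shmt2 was below Mthfd2 in 4 of 4 libraries, with a log2(CPM + 1) difference of -2.91 (SE 0.36, limma adjusted p = 0.00061) and one of -2.71 per kb of exon (limma adjusted p = 0.000852).

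Shmt2 and Mthfd2 were also set against genes of related folate enzymes. Shmt2 exceeded its cytosolic counterpart Shmt1, at 1.58, 1.56, 1.26 and 0.831 CPM, by 1.38 on the log2(CPM + 1) scale (4 of 4 libraries, SE 0.25, limma adjusted p = 0.00349). In a fit added after the data had been seen, which took the mean of each library pair as 1 value, that call was lost (limma adjusted p = 0.0881). Shmt1 fell under the filter on low values per kb of exon, so that scale gave no value. Mthfd2 exceeded Mthfd2l, the gene of the other mitochondrial enzyme of its kind, which had 4.44 ± 2.35 CPM (log2 difference 3.16 in 4 of 4 libraries, SE 0.37, limma adjusted p = 0.000504; 3.71 per kb of exon). Mthfd2 could not be ranked against Mthfd1l, which encodes the next mitochondrial enzyme (log2 difference 0.24, SE 0.51, limma adjusted p = 0.68). Mthfd1l had 66.6 and 79.1 CPM in replicates 1 and 2, above Mthfd2, and 21.3 and 15.8 CPM in replicates 3 and 4, below it. Mthfd2 over the cytosolic gene Mthfd1 did not pass in CPM (log2 difference 1.08, SE 0.46, limma adjusted p = 0.0751) but passed per kb of exon (1.39, limma adjusted p = 0.0337) and, in CPM, without replicate 1 (1.46, limma adjusted p = 0.0352).

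Asns, on chromosome 6 (7675169 to 7693254), encodes asparagine synthetase, a standard readout of amino acid shortage. It had 14.3, 16.04, 6.10 and 6.09 CPM in replicates 1 to 4, a mean of 10.6 ± 5.29 CPM (SD, n = 4), and was 2.49-fold higher in replicates 1 and 2 without overlap. The level was far below that of Glul, the glutamine synthetase gene, which had 167 ± 11.9 CPM (log2 difference of Asns over Glul -3.97, SE 0.30, limma adjusted p = 8.82e-05, lower in 4 of 4 libraries; -3.69 per kb of exon). Glul is also a marker of satellite glia. Asns exceeded Asnsd1, a gene with an asparagine synthetase domain, which had 4.68 ± 2.29 CPM (log2 difference 1.00 in 4 of 4 libraries, SE 0.26, limma adjusted p = 0.0144; 1.29 per kb of exon). That CPM call was lost without replicate 2 (limma adjusted p = 0.0723) or replicate 4 (0.0511), and with the library pair means as values (0.224).

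**Figure D3:**
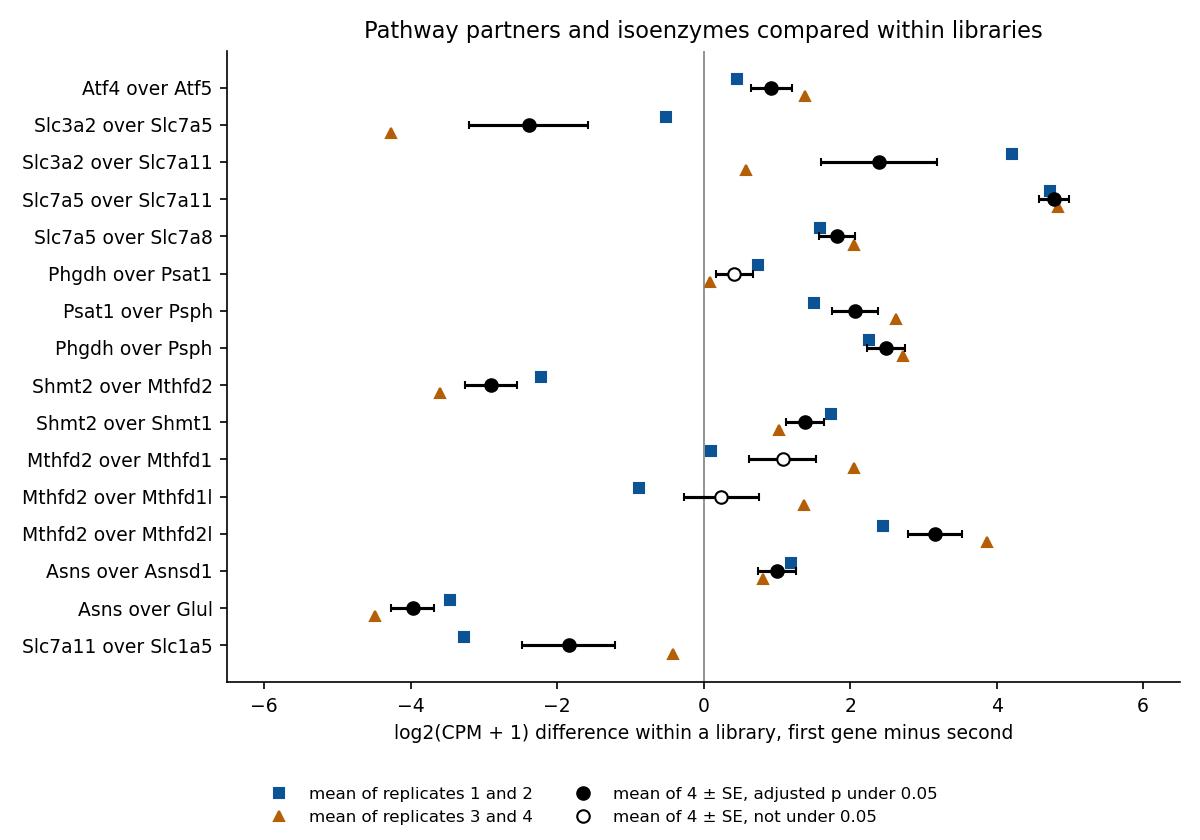
Within-library difference of log2(CPM + 1), first gene minus second, for 16 pairs of pathway partners or isoenzymes; circles with bars are the mean of 4 libraries ± SE (filled where limma's adjusted p is under 0.05), squares the mean of replicates 1 and 2, triangles the mean of replicates 3 and 4. Filled circles mark 13 of the 16 pairs (81.2%, near the 76.7% of all pairs of 1 of the 10 genes with any gene), and the squares and triangles lie farthest apart for Slc3a2 over Slc7a5 (-0.51 and -4.26) and for Slc3a2 over Slc7a11 (4.21 and 0.58).

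Ordered by mean CPM the genes ran Atf4, Slc7a5, Atf5, Mthfd2, Slc3a2, Phgdh, Psat1, Asns, Shmt2 and Slc7a11. Per kb of exon the order was Atf4, Atf5, Slc7a5, Phgdh, Slc3a2, Mthfd2, Psat1, Asns, Shmt2 and Slc7a11. Of the 45 pairs among them 37 (82.2%) passed, against 76.7% of all pairs of 1 of these genes with any gene, so the share lay near the background. Per kb of exon 38 of 45 passed, against a background of 77.9%, and 35 passed with the same sign on both scales. Of the 9 neighbouring pairs in the CPM order 4 passed. These were Atf4 over Slc7a5 (log2 difference 0.81, SE 0.22, limma adjusted p = 0.0164), Atf5 over Mthfd2 (1.73, SE 0.23, limma adjusted p = 0.000864), Psat1 over Asns (1.18, SE 0.36, limma adjusted p = 0.0246) and Asns over Shmt2 (0.84, SE 0.22, limma adjusted p = 0.0153). Psat1 over Asns did not pass per kb of exon (0.57, limma adjusted p = 0.189), nor in CPM without replicate 3 (0.0891) or replicate 4 (0.0863). Atf4 over Slc7a5 was lost without replicate 1 (limma adjusted p = 0.086) or 2 (0.0684), and Asns over Shmt2 without replicate 1 (0.0595), 2 (0.0763) or 4 (0.0601).

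The other 5 neighbours did not differ beyond their spread in CPM: Slc7a5 and Atf5, Mthfd2 and Slc3a2, Slc3a2 and Phgdh, Phgdh and Psat1, Shmt2 and Slc7a11. Per kb of exon Shmt2 over Slc7a11 passed (log2 difference 1.46 in 4 of 4 libraries, SE 0.40, limma adjusted p = 0.0178). Phgdh over Psat1 also passed on that scale, as given above, and the rest of these neighbours did not. Slc7a5 was below Atf5 in replicates 1 and 2 (log2 difference -0.49) and above it in replicates 3 and 4 (0.72). Slc3a2 took rank 4 among the 10 genes in replicates 1 and 2 and rank 7 in replicates 3 and 4. In all, 6 of the 45 pairs pointed in opposite directions in the 2 pairs of libraries, and 3 of these involve Slc3a2. Each pair of genes that pointed one way in 4 of 4 libraries had an exact sign-flip p of 0.125 (two-sided), the smallest that 4 libraries allow. In the fit on library pair means 31 of the 45 passed, all of them among the 37. With 2 values per gene pair, its SE was nearly alike for all of them (0.727 for Atf4 over Slc7a5, 0.736 for Slc7a5 over Slc3a2). The fit thus sorts gene pairs by the size of the difference and does not judge how well the library pairs match. The calls not made in it were Atf4 over Slc7a5, Atf4 over Atf5, Mthfd2 over Psat1, Slc3a2 over Asns, Psat1 over Asns and Asns over Shmt2, with limma adjusted p from 0.0617 to 0.333.

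The values of all 10 genes parted between replicates 1 and 2 and replicates 3 and 4, but so did 78.5% of the genes that averaged 1 CPM or more and 84.9% of those that averaged 10 CPM or more. A difference of at least 2-fold without overlap was found for 5 of the 10, against 37% of the genes that averaged 1 CPM or more, and for 3 of the 10 when replicate 3 was left out. Asns, Shmt2 and Slc3a2 were higher in replicates 1 and 2 (background 24.1%), and Slc7a5 and Slc7a11 were higher in replicates 3 and 4 (background 12.8%). Among the 8 that averaged 10 CPM or more the count was 3, with a background of 33.2%, made up of Asns and Slc3a2 (background 23.7%) and Slc7a5 (background 9.56%). These shares describe how the libraries fell and are no test, since the library pairs were set apart from the data and are not groups of the study. Psat1, Mthfd2 and Atf5 moved least, with pair means 1.16-fold, 1.26-fold and 1.121-fold apart. Removing the 18S entries and rescaling changed no direction, and Slc3a2 then was still at 76.9 CPM in replicates 1 and 2 and 12.4 CPM in replicates 3 and 4. For Atf5 the log2 ratio of the pair means was 0.16, and 0.02 after that rescaling.

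Several other measures moved with the library pairs, and their part in these differences was not tested. The median log2 ratio of replicates 1 and 2 over replicates 3 and 4 was 0.73 for the shortest of 3 equal classes of exonic length, 0.22 for the middle class and -0.23 for the longest, over genes that averaged 10 CPM or more. Of the 10 genes, the shortest class held Slc3a2 (log2 ratio 2.77), Asns (1.32), Phgdh (0.43), Atf5 (0.16), Mthfd2 (-0.34) and Atf4 (-0.76). Schwann cell markers, all 8 detected and none listed at 0, summed to 27976 to 29056 CPM in replicates 1 and 2 and to 15437 to 15842 CPM in replicates 3 and 4. Satellite glia markers, 6 of 6 detected, summed to 1204 to 1249 CPM in replicates 1 and 2 and to 639 to 699.7 CPM in replicates 3 and 4. The 5 blood markers held 955 to 1071 CPM in replicates 1 and 2 and 498 to 534 CPM in replicates 3 and 4, and the 5 skeletal muscle markers 846 to 864 CPM and 421 to 489.7 CPM in the same order. Fibroblast markers (6 of 6) ranged from 1765 to 1936 CPM and from 1319 to 1517 CPM in that order. Macrophage markers, 4 of 6 detected and none at 0 throughout, ranged from 272 to 317 CPM in replicates 1 and 2 and from 248 to 251 CPM in replicates 3 and 4. Vascular markers (6 of 6) ranged from 157 to 166 CPM and from 138 to 143 CPM in that order. Pan-neuronal markers ranged from 12257 to 12479 CPM in replicates 1 and 2 and from 10825 to 12370 CPM in replicates 3 and 4. Markers of central nervous system glia, 3 of 5 detected, stayed between 23.5 and 29.4 CPM in all 4 libraries. In whole ganglia, fewer cells of a type and less RNA per cell cannot be told apart.

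Few annotated entries could share reads with these genes. Gm20388, a locus that spans the whole of Slc7a5 on the opposite strand, had 11.2, 10.5, 55.1 and 50.3 CPM in replicates 1 to 4 and so moved in the same direction as Slc7a5. The use of strand in the counting is not given in the sources used here, and the Slc7a5 level is uncertain to that extent. Nup62, which overlaps the start of Atf5 on the opposite strand by 571 bases, had 25.5 ± 5.16 CPM, and Il4i1, which overlaps it by 272 bases, was listed at 0. Ndufa4l2, whose end meets that of Shmt2 over 32 bases, stayed at or below 0.0986 CPM. Phgdh-ps1, a processed pseudogene of Phgdh, stayed at or below 0.179 CPM, and the entries within Slc7a11, Psat1 and Mthfd2 did not exceed 1.08 CPM in any library.

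The profile over the 4 libraries, taken as log2(CPM + 1) less its mean, put Atf4 nearest to Slc7a11 among the 10 genes, with a root mean square difference of 0.0998. Psat1 and Mthfd2 were each other's nearest at 0.0993, Slc7a5 was nearest to Slc7a11 at 0.115, Phgdh to Atf5 at 0.223, and Asns and Shmt2 to each other at 0.233. Atf5 lay nearest to Psat1 at 0.187. Slc3a2 had no close match, with Asns nearest at 0.792. Over all genes that averaged 10 CPM or more, Wnt4 (0.00928), Smg6 (0.0160) and Ralgps2 (0.0172) were nearest to Atf4. With only 4 libraries that fall into pairs such matches are common, and 274 of 8579 genes lay within 0.1 of Atf4. The log2(CPM + 1) scale also understates the swing of a low gene such as Slc7a11 (mean 5.13 CPM). In CPM, the log2 ratio of replicates 1 and 2 over replicates 3 and 4 was -1.14 for Slc7a11. That lay nearer to Slc7a5 (-1.05) than to Atf4 (-0.76), so the match of Atf4 with Slc7a11 is given for the log2(CPM + 1) scale only.

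Other genes of the same pathways were looked up in 4 lists, of which 68 of 69 genes were matched by symbol, and 52 were detected. In the list of stress response signalling genes and ATF4 partners 12 of 16 were detected, and these had a median level of 21.03 CPM, against 38.1 CPM over the 10 genes and 19.1 CPM over all genes detected in 4 libraries. Ddit4, which encodes an inhibitor of mTORC1, led with 236, 300.0, 21.2 and 28.8 CPM in replicates 1 to 4. Ppp1r15a and Xbp1 followed with means of 78.2 and 48.3 CPM, and Atf3 was the lowest detected at 3.90 CPM. Chac1, Stc2 and Fgf21 stayed below 1 CPM in every library. Xbp1, a factor of the unfolded protein response, was higher in replicates 1 and 2 (72.6 and 59.3 CPM) than in replicates 3 and 4 (31.6 and 29.9 CPM). Ppp1r15a went the other way, with 48.7, 51.4, 108 and 104.5 CPM in replicates 1 to 4. Of the 12 detected genes, 4 were at least 2-fold higher in replicates 1 and 2 without overlap and 3 in replicates 3 and 4. The shares over all detected genes were 22.2% and 10.5%.

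In the list of serine, glycine and folate genes 14 of 18 were detected, with a median of 6.12 CPM over the detected genes. Mat2a, the gene of the enzyme that makes S-adenosylmethionine, led with 175, 182, 193 and 164 CPM and did not part between the library pairs. Gcsh, a part of the glycine cleavage system, had 254, 266, 53.6 and 58.0 CPM. Mthfd1l, described above, came next by mean, Tyms was the lowest detected at 2.23 CPM, and Cbs was listed at 0 in all 4 libraries.

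In the list of amino acid synthesis and transamination genes 11 of 14 matched genes were detected, with a median of 58.1 CPM over the detected genes. Glul, described above, was among the highest, as was Got1, an aspartate aminotransferase gene, at 158 ± 28.3 CPM (SD, n = 4). Gpt was the lowest detected at 2.74 CPM, and Pycr1, a proline synthesis gene known as an ATF4 target, stayed below 1 CPM in every library.

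In the list of amino acid transporters 15 of 20 were detected, with a median of 38.7 CPM over the detected genes. Slc38a2, the gene of the amino acid-responsive transporter SNAT2, led with 195, 196, 91.6 and 109 CPM in replicates 1 to 4. Slc36a1, a lysosomal amino acid transporter gene, had 128 ± 35.3 CPM and Slc7a2, a cationic amino acid transporter gene, 116 ± 16.7 CPM. Slc7a3 was the lowest detected at 11.1 CPM. Slc7a9, Slc7a10 and Slc6a9 stayed below 1 CPM in every library, and Slc3a1, the heavy chain gene related to Slc3a2, was listed at 0 in all 4. Of the 52 detected genes of the 4 lists, 14 were at least 2-fold higher in replicates 1 and 2 without overlap and 4 in replicates 3 and 4, where the shares over all detected genes were 22.2% and 10.5%.

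**Figure D4:**
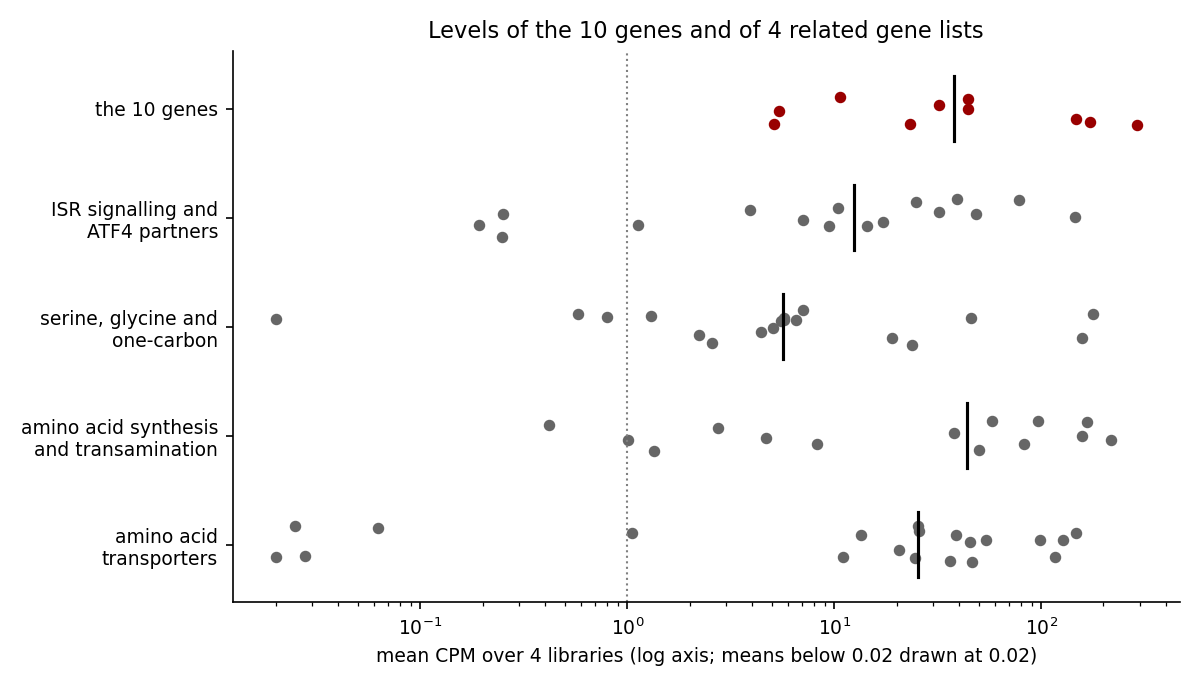
Mean CPM over 4 libraries (log axis) of each of the 10 genes and of the genes in 4 related lists; each point is a gene, the vertical bar is the median over all matched genes of the list, detected or not, and the dotted line marks 1 CPM, and genes at or near 0 are drawn at the left edge. The 10 genes lie between 5.13 and 289 CPM with a median of 38.1 CPM, and every list but them has genes below 1 CPM.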

How the data were processed

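RNA from 4 libraries of 1 group was analysed. Per the labels' protocols, TRIzol RNA was depleted of ribosomal RNA and made into QuantSeq 3′ libraries. The submitters' processing notes name FastQC 0.11.5, TopHat2 2.1.1, Bowtie2 2.2.9, Cufflinks 2.2.1, GRCm38.p4 and mm10; the annotation and the use of strand are not stated in them. Per the file headers the deposited values are TPM, but they were used as CPM. In every library at least 98.277% of values above 0 were whole multiples of its most frequent value above 0 (tolerance 0.05), taken as the step of 1 read. Each library summed to 1000000, which TPM would do as well. No count model was fitted, since 1 group leaves it no contrast.

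Positions and exonic lengths came from GENCODE M21 (99.2% of genes matched). Differences between genes were tested with limma 3.58.1 (R 4.3.3) on log2(CPM + 1), intercept only, two-sided, with Benjamini-Hochberg adjustment over all gene pairs, and called at an adjusted p under 0.05. The fit was tested on simulated data with 4 independent libraries. Those did not fall into pairs as the real ones do, so error rates under such pairs were not tested. Python 3.11.15 with pandas 2.3.3 and scipy 1.17.1 did the rest. The genes, lists and partner pairs were chosen with earlier results of these data known. Named were all 10 genes, the partner genes, the 3 highest, the lowest detected and all undetectable genes of each list, overlapping entries and nearest profiles; 1 gene that this rule names is not reported here. Alternatives were pseudocounts, filters, per-kb values, rescaling, library pair terms, unmoderated variance and each replicate left out. Protein sequences were not used here.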

Additional observations from a re-analysis of the deposited data

How the results depend on the processing

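The count of gene pairs called among the 10 genes was 37 and stayed between 30 (unmoderated variance) and 42 (library pair as a term), with 33 to 34 when a replicate was left out. Of the 16 partner pairs 13 passed (81.2%, where 76.7% of all pairs did), and 9 to 15 did under the same alternatives, 10 to 12 without a replicate; with a filter at a mean of 10 CPM 8 passed, since partner genes below the filter were not tested. The 5 genes at least 2-fold apart between library pairs became 3 to 5 without a replicate, 3 without replicate 3. The 52 detected pathway genes ranged from 38 (detection at 5 CPM) to 56 (at 0.5 CPM). Among the neighbouring and partner pairs, the log2 difference changed sign only for pairs that had not passed. Slc7a5 over Atf5 was -0.78 per kb of exon, and ranged from -0.14 (without replicate 3, and -0.04 without replicate 4) to 0.37. Leaving out each replicate in turn gave -0.0069 (without replicate 4) to 1.08 for Mthfd2 over Slc3a2. It gave -0.49 to 0.30 for Slc3a2 over Phgdh (0.28 without replicate 3). It gave -0.32 to 0.42 for Shmt2 over Slc7a11 (-0.26 without replicate 2), and -0.14 to 0.63 for Mthfd2 over Mthfd1l (-0.12 without replicate 3). The cause was not tested. Slc3a2 over Slc7a5 lost its call without moderated variance (adjusted p = 0.145), as did Slc3a2 over Slc7a11 (0.135), Slc7a11 over Slc1a5 (0.142), Psat1 over Asns (0.084) and Atf4 over Atf5 (0.0589). No paired analysis was possible because the labels give 1 group, so that no replicate number is shared between groups; the tests compare genes within each library. Depth limits Shmt2 and Slc7a11 most, with 17 to 77 and 30 to 45 reads per library.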
